A study of Mus musculus with 24 samples.

Results

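The genes described here are 9 apolipoproteins (Apoa1, Apoa2, Apoa4, Apoa5, Apob, Apoc1, Apoc3, Apoe and Apom) and Mttp, the microsomal triglyceride transfer protein that loads lipid onto nascent lipoproteins. They were taken by symbol from a fixed list of 10 names, and each name was found at 1 of the 23746 gene loci in the files. All 10 passed the filter on low values in every fit. Liver RNA from 24 C57BL/6 mouse samples had been sequenced as stranded mRNA libraries, 3 libraries in each of 8 groups. In the acute model, FoxO1lox/lox mice received AAV8.TBG.Cre (Cre groups) or AAV8.TBG.eGFP (GFP groups), and livers were taken 21 days later. In the constitutive model, Albumin-cre animals labelled FoxO1-/- (KO groups) were set against FoxO1lox/lox animals (WT groups). Each genotype was sampled after a 4 h fast with 1 h of refeeding (refed) and after a 4 h fast (fasted). The GFP and WT controls thus carry the same floxed Foxo1 alleles as the knockouts. In build mm10, Apoa1 (chr9:46228630-46230466), Apoc3 (chr9:46233051-46235297, minus strand), Apoa4 (chr9:46240844-46243458) and Apoa5 (chr9:46268608-46271919) form a cluster on chromosome 9, and Apoc1 (chr7:19689481-19692658) and Apoe (chr7:19696244-19699166) lie side by side on the minus strand of chromosome 7. Apoa2 is at chr1:171225054-171226379, Apob at chr12:7977677-8016839, Apom at chr17:35128997-35131752 on the minus strand and Mttp at chr3:138089855-138143388 on the minus strand. The TBG and albumin promoters direct Cre to hepatocytes, and FoxO1 in the other cells of the liver was not measured apart. Age and sex were not stated in the labels.

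Apolipoproteins are the protein coat of the particles that carry triglyceride and cholesterol in blood. In hepatocytes, Mttp transfers lipid to apolipoprotein B to form very low density lipoprotein, while apolipoproteins A-I and A-II build high density lipoprotein. FoxO1 is a transcription factor that is held out of the nucleus when insulin signals after a meal, and in cultured hepatocytes and mice it is known as an activator of Apoc3 and Mttp.

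Apom, Apoa1 and Apoa2 are shown here by the 250 bases upstream of their RefSeq starts (GRCm38.p6), written 5′ to 3′ on the gene's own strand. Apom and Apoa1 are the members called lower when all 24 libraries were fitted together. Apoa2 is the member whose window held a forkhead motif, in capitals. The Apom window is chr17:35131802-35132051 on the minus strand, the Apoa1 window is chr9:46228380-46228629 on the plus strand, and the Apoa2 window is chr1:171224804-171225053 on the plus strand. The RefSeq start of Apom lies 49 bases beyond the end of the locus in the files.
Apom: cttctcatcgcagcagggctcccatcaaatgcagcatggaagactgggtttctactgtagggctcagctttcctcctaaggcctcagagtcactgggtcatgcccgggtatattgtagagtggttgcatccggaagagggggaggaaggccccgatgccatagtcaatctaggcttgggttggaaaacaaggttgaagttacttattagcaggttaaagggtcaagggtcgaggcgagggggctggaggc
Apoa1: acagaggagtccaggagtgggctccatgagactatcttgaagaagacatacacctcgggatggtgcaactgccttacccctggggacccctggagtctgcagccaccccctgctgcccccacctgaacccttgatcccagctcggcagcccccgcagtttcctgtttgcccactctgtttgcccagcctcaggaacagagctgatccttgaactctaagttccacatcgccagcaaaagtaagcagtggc
Apoa2: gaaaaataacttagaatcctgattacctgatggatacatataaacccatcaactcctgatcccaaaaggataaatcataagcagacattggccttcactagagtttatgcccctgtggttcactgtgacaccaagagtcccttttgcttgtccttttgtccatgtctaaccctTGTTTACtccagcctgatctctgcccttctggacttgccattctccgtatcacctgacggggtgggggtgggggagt
Windows of this length were available for 8 of the 10 members, and for 27025 genes in all; Apoc1 and Apoc3 are not among them. The forkhead motif GTAAACA, read on both strands, was found in 1 of the 8, at bases -77 to -71 of Apoa2 as its reverse complement TGTTTAC, and in 3.09% of all windows. The related forkhead motif ATAAACA (4.19% of all windows), the insulin response element CAAAACA (5.55%) and the nuclear receptor motif AGGTCA (13.8%) were found in 0 of the 8. The core CAAAGT bound by HNF4-type receptors was found in 1, at bases -182 to -177 of Apoa4, and in 12.5% of all windows. These searches describe letters in a short window and say nothing of binding.

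The 10 genes spanned a wide range of levels in liver, compared here per transcript length in FPKM, a fragment count scaled by the authors' software to transcript length and to the library's total. Apoa2 was the highest, with a mean of 18328 ± 2278 FPKM (SD, n = 24 libraries), the second highest of all 23746 loci. Apoe, the ligand for receptor uptake of remnants, followed with 13069 ± 1054 FPKM, and Apoc1, an inhibitor of lipoprotein uptake and of lipases, with 12972 ± 1665 FPKM. Apoa1, the main protein of high density lipoprotein, averaged 7312 ± 1413 FPKM, and Apoc3, an inhibitor of lipoprotein lipase, averaged 3321 ± 517 FPKM. Apoa5, which promotes triglyceride clearance, stood far below them at 569 ± 70.3 FPKM. Apob, the structural protein of very low density lipoprotein, averaged 307 ± 40.6 FPKM, and Apom, a high density lipoprotein component that carries sphingosine 1-phosphate, averaged 279 ± 60.1 FPKM. The lowest were Mttp at 65.8 ± 7.94 FPKM and Apoa4, better known from intestine, at 53.3 ± 13.5 FPKM. Neighbours in this order were not always separate: Apoe exceeded Apoc1 in 14 of 24 libraries, Apob exceeded Apom in 17 and Mttp exceeded Apoa4 in 19, while each of the other neighbours kept its order in all 24. Together the 10 genes made up 7.45% to 11.9% of the summed FPKM of a library.

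**Figure D1:**
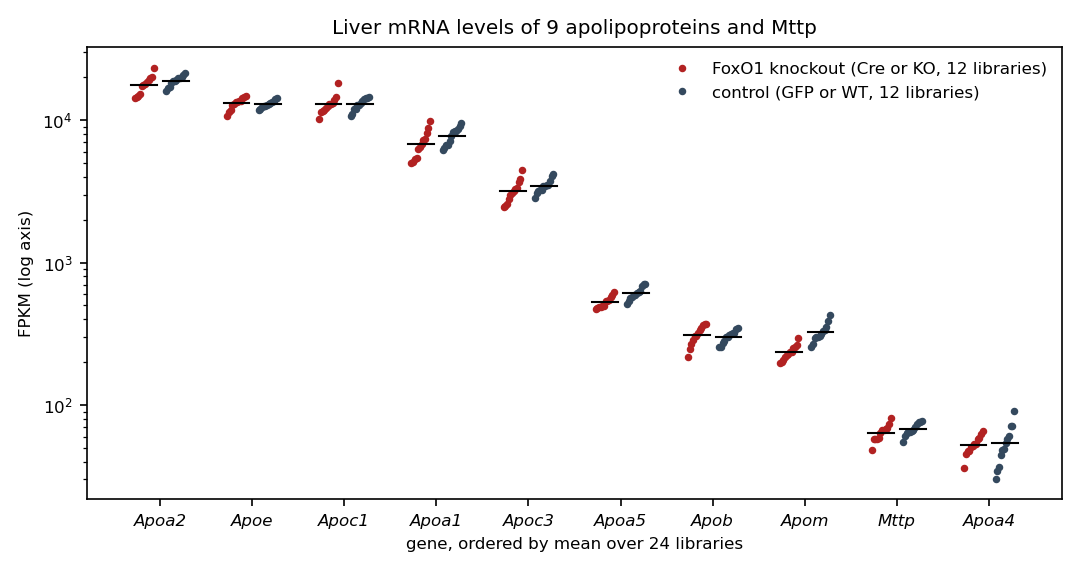
FPKM of the 10 genes on a log axis, ordered by mean over 24 libraries; each point is a library, FoxO1 knockout livers left and control livers right, and bars are means of 12 libraries. Levels run from 53.3 FPKM for Apoa4 to 18328 FPKM for Apoa2, and among these genes the knockout and control points stand apart most for Apom.

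Foxo1 itself was listed at 0.212 to 0.571 FPKM in the 12 Cre and KO libraries and at 4.21 to 6.81 FPKM in the 12 GFP and WT libraries, as labelled. Relative depth, read from the deposited intervals, was 1.16 to 1.37 in 4 acute libraries (Cre fasted 1, Cre refed 1, GFP fasted 3 and GFP refed 3), 0.551 to 0.670 in the other 8 acute libraries and 1.10 to 1.27 in the constitutive libraries. The hepatocyte markers Alb, Ttr, Fgb, Ahsg, Cps1 and Serpina1c summed to 49523 to 71386 FPKM. The enterocyte markers Sis, Alpi, Cdx1 and Cdx2 were listed at 0 in all 24 libraries and Lct in 22, while Fabp2 stood at 58.7 to 114 FPKM and Lgals4 at 7.57 to 27.4 FPKM. The labels do not say whether the libraries of a group came from separate animals, so the tests measure the spread between libraries.

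Apom was lower in FoxO1 knockout livers than in control livers in both models and both feeding states. In fasted livers of the acute model it stood at 295, 229 and 235 FPKM with Cre, against 315, 295 and 332 FPKM with GFP. In refed livers of that model the values were 256, 263 and 252 FPKM with Cre, against 301, 428 and 392 FPKM with GFP. Every Cre library lay below every GFP library of its state, although in fasted livers the highest Cre and lowest GFP libraries nearly met. In fasted livers of the constitutive model Apom stood at 224, 216 and 196 FPKM in KO, against 334, 300.5 and 305 FPKM in WT. In refed livers it stood at 235, 206 and 199.9 FPKM in KO, against 351, 269 and 256 FPKM in WT. Here too the KO and WT libraries did not overlap in either state. These are values of whole liver, in which fewer cells of a type and less RNA per cell cannot be told apart.

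Fitted over all 24 libraries with limma, Apom fell by 0.46 ± 0.06 on the log2(FPKM + 1) scale (SE, 95% interval -0.59 to -0.33, adjusted p = 0.000289), a ratio of means of 0.724. With the same rule 2 of the 10 members, Apom and Apoa1, were called lower and 0 higher, against 3.14% of the 10682 genes tested called in either direction and 1.98% called lower. Apom stood at rank 24 of those genes by the size of its test statistic. Taken per model and averaged over both states, it fell in the constitutive model by 0.50 ± 0.08 (adjusted p = 0.0175), the 1 member called there, against 0.723% of genes called in either direction and 0.434% called lower. This call was lost when either KO fasted replicate 2 (adjusted p = 0.053) or KO refed replicate 2 (0.0519) was left out. Markers of other liver cells stood above 0 in the same comparison, for 7 of 7 Kupffer cell, 6 of 6 stellate cell and 6 of 6 sinusoidal endothelial genes (1 of these called), beside 4 of 6 hepatocyte genes. The summed endothelial markers were 38.1 to 45.6 FPKM in KO fasted livers, against 27.6 to 31.6 FPKM in WT fasted livers, and 35.9 to 39.4 FPKM in KO refed livers, against 28.2 to 33.9 FPKM in WT refed livers. In the acute average, 0 of 6 endothelial genes stood above 0, and the part of these markers in the results was not tested. In the acute model the average difference for Apom was -0.42 ± 0.09 (adjusted p = 0.0522). By single state the differences were -0.32 ± 0.13 in fasted and -0.52 ± 0.13 in refed acute livers (adjusted p = 0.351 and 0.197), and -0.56 ± 0.12 in fasted and -0.44 ± 0.12 in refed constitutive livers (adjusted p = 0.139 and 0.291). The test of the difference between models missed the threshold in fasted livers (acute minus constitutive 0.24, 95% interval -0.13 to 0.62) and in refed livers (-0.08, -0.46 to 0.29).

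**Figure D2:**
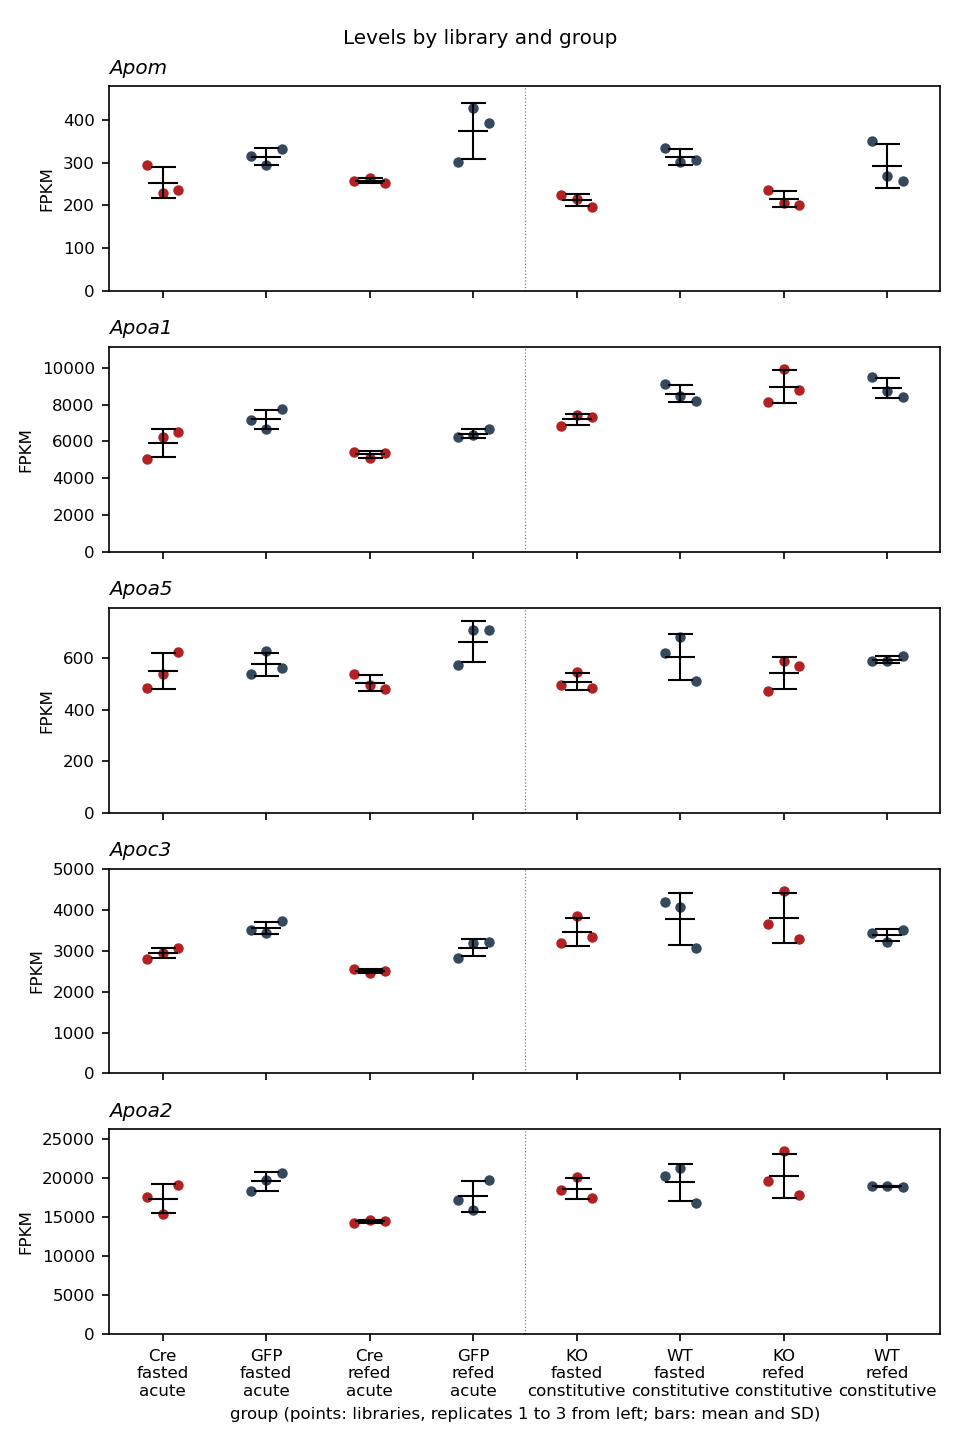
FPKM by library for Apom, Apoa1, Apoa5, Apoc3 and Apoa2 in the 8 groups, knockout (Cre or KO, red) left of its control (GFP or WT, dark); points are libraries and bars show the mean and SD of 3. Apom points of Cre and KO lie below those of GFP and WT in each pair of groups, while Apoc3 does so in the acute model and overlaps in the constitutive one.

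Apoa1 was lower in knockout livers in 3 of the 4 pairs of groups. In the acute model it stood at 5035, 6243 and 6489 FPKM in Cre fasted livers, against 7158, 6699 and 7755 FPKM in GFP fasted livers. In refed livers it stood at 5439, 5098 and 5361 FPKM with Cre, against 6215, 6346 and 6679.6 FPKM with GFP. The Cre and GFP libraries did not overlap in either state. In constitutive livers it stood at 6856, 7440.0 and 7303 FPKM in KO fasted livers, against 9115, 8446 and 8206 FPKM in WT fasted livers, again without overlap. In refed livers KO libraries had 8164, 9949 and 8818 FPKM, against 9506, 8723 and 8436 FPKM in WT libraries, and these overlapped. Over all 24 libraries Apoa1 fell by 0.20 ± 0.05 on the log2 scale (95% interval -0.30 to -0.10, adjusted p = 0.0229). That call was lost without KO refed replicate 1 (adjusted p = 0.0505), without the 4 deeper acute libraries (0.105) and with no filter on low values (0.156). In neither model alone was Apoa1 called, with differences of -0.28 ± 0.08 in the acute (adjusted p = 0.108) and -0.12 ± 0.07 in the constitutive model (adjusted p = 0.486).

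Apoc3, the neighbour of Apoa1 on chromosome 9 and a known FoxO1 target, was lower with Cre in the acute model. Fasted livers had 2812, 2963 and 3072 FPKM with Cre, against 3522, 3444 and 3734 FPKM with GFP. Refed livers had 2561, 2469.7 and 2514 FPKM with Cre, against 2839, 3195 and 3218 FPKM with GFP. The libraries did not overlap in either state. Averaged over states, Apoc3 fell in the acute model by 0.28 ± 0.06 on the log2 scale (adjusted p = 0.0396), the 1 member called there, against 1.47% of genes called in either direction and 0.842% called lower. That call held in 1 of 12 fits that left out 1 library (adjusted p up to 0.102), and was lost without the 4 deeper libraries (0.336) and with no filter on low values (0.168). Constitutive livers showed no such gap for Apoc3, which had 3192, 3849 and 3333 FPKM in KO fasted livers, against 4205, 4084 and 3063 FPKM in WT fasted livers. After refeeding it had 3656, 4484 and 3299 FPKM in KO livers, against 3452, 3224 and 3508 FPKM in WT livers. Both pairs overlapped, and the averaged difference was 0.02 ± 0.10 (95% interval -0.20 to 0.23). The difference between models was itself not called, in fasted livers (-0.15, 95% interval -0.49 to 0.18, adjusted p = 0.901) or refed livers (-0.45, -0.79 to -0.11, adjusted p = 0.377).

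Apoa5, at the far end of the same gene cluster, had 487, 540.4 and 625 FPKM in Cre fasted livers, against 540.4, 628 and 562 FPKM in GFP fasted livers. In refed livers it had 541, 496 and 481 FPKM with Cre, against 575, 710.0 and 712 FPKM with GFP. The fasted libraries overlapped and the refed ones did not. In the constitutive model KO fasted livers had 496, 546 and 485 FPKM, against 622, 684 and 510.5 FPKM in WT fasted livers. KO refed livers had 474, 589 and 569 FPKM, against 589, 588 and 609.8 FPKM in WT refed livers. Both pairs overlapped. The difference over all 24 libraries was -0.21 ± 0.06 on the log2 scale (95% interval -0.33 to -0.09, adjusted p = 0.0535), just outside the threshold, and it passed in 6 of 13 alternative analyses and in 4 of 24 fits without 1 library.

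Apoa2, the most abundant member, had 17662, 15374 and 19103 FPKM in Cre fasted livers, against 18349.7, 19764 and 20715 FPKM in GFP fasted livers. In refed livers it had 14291, 14712 and 14475 FPKM with Cre, against 17209, 15967 and 19832 FPKM with GFP. The fasted libraries overlapped and the refed ones did not. KO fasted livers had 18487, 20119 and 17451 FPKM, against 20242, 21382 and 16853 FPKM in WT fasted livers. KO refed livers had 19646, 23452 and 17905 FPKM, against 18953, 19045 and 18882 FPKM in WT refed livers. Both constitutive pairs overlapped, and the difference over all libraries was -0.11 ± 0.06 on the log2 scale (95% interval -0.22 to 0.01, adjusted p = 0.381).

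The other 5 members were not called in any comparison of knockout with control. Mttp, also a known FoxO1 target, ranged over 48.3 to 81.3 FPKM in Cre and KO libraries and over 54.7 to 76.9 FPKM in GFP and WT libraries. Its difference was 0.01 ± 0.06 on the log2 scale in the acute model (95% interval -0.14 to 0.15), -0.18 ± 0.09 in the constitutive model (-0.37 to 0.01) and -0.09 ± 0.06 over all libraries (-0.20 to 0.03). Apob ranged over 216 to 371 FPKM in Cre and KO libraries and over 255 to 345 FPKM in GFP and WT libraries, with differences of 0.14 ± 0.05 (0.03 to 0.25) in the acute and -0.08 ± 0.10 (-0.29 to 0.14) in the constitutive model. Over all libraries Apoe differed by 0.01 ± 0.04 (-0.07 to 0.09) and Apoc1 by 0.00 ± 0.07 (-0.14 to 0.14). Their ranges over all knockout and all control libraries overlapped, but those in refed acute livers did not. There Apoe had 10668 to 11847 FPKM with Cre, against 11924 to 13390 FPKM with GFP. Apoc1 had 10272 to 11747 FPKM with Cre, against 11969 to 13589 FPKM with GFP. In fasted acute livers the mean of Apoe was instead higher with Cre, at 13689 FPKM against 12726 FPKM with GFP. Apoa4 varied most, from 36.2 to 65.9 FPKM in Cre and KO libraries and from 30.5 to 91.4 FPKM in GFP and WT libraries. Its interval over all libraries, -0.25 to 0.26, leaves room for a change larger than that called for Apoa1.

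**Figure D3:**
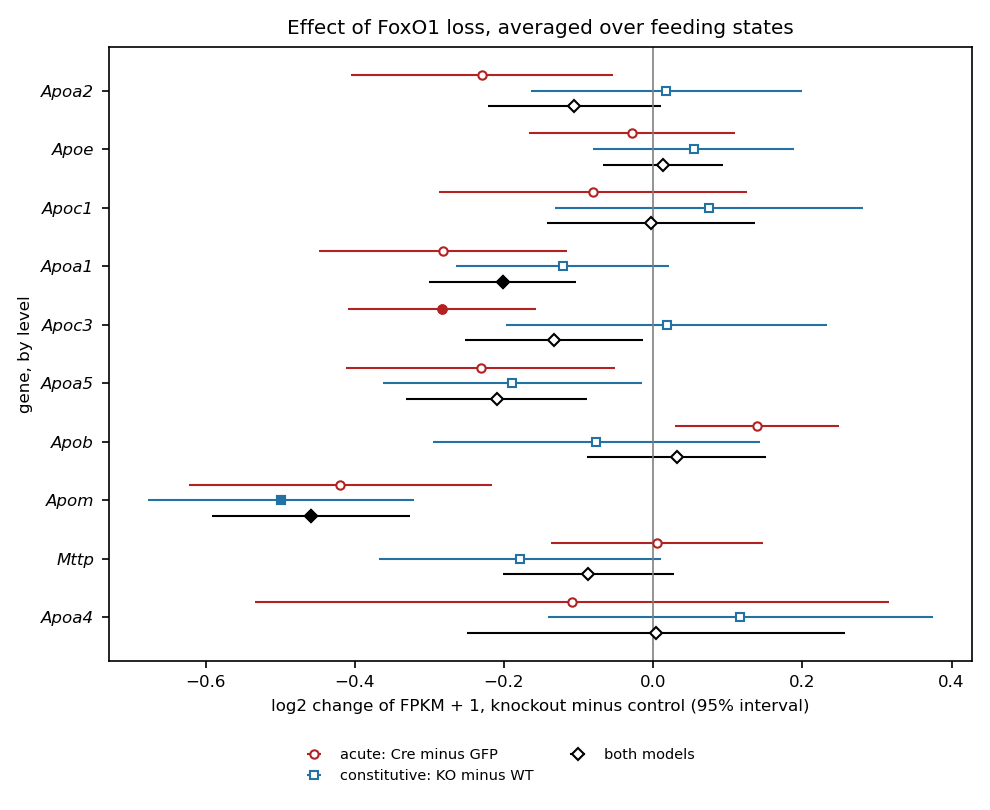
Log2 change of FPKM + 1, knockout minus control averaged over feeding states, for each gene with its 95% interval, in the acute model (circles), the constitutive model (squares) and both together (diamonds); filled symbols mark an adjusted p under 0.05. The filled symbols are those of Apom in the constitutive and the joint fit, Apoa1 in the joint fit and Apoc3 in the acute fit.

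In fasted acute livers 0 of 10 members were called, against 0.297% of genes, and in refed acute livers 0 of 10, against 0.105%. An unadjusted p under 0.05 in limma was found for 3 and 6 members, beside 1288 and 950 of the 10452 genes tested. Of the constitutive comparisons, 0 of 10 were called in fasted livers (0.0964% of genes) and in refed livers (0.0289%). Each state had 2 members at an unadjusted p under 0.05 in limma, beside 681 (fasted) and 1124 (refed) of 10375 genes. Libraries did not overlap for 8 of 10 members between refed Cre and refed GFP livers, 7 of them lower with Cre (Apoa1, Apoa2, Apoa5, Apoc1, Apoc3, Apoe and Apom) and Apob higher, against 12.7% of all genes, 6.51% lower and 6.17% higher. In fasted acute livers 3 members did not overlap (Apoa1, Apoc3 and Apom, all lower), against 18.7% of genes, 9.55% lower. For Apoa1 and Apom it held in fasted constitutive livers, both lower, against 12.2% of genes and 4.64% lower, and for Apom in refed ones, against 15.3% and 8.5% lower. Much of each library's FPKM lies in these genes, and their summed share was 7.94% ± 0.427 in Cre refed livers, against 9.36% ± 0.341 in GFP refed livers (SD, n = 3 each). The summed hepatocyte markers also ran lower there, at 49523 to 58898 FPKM in Cre refed livers, against 53652 to 71386 FPKM in GFP refed livers, and the summed Kupffer cell markers spread from 22.6 to 138 FPKM in Cre refed livers, against 35.6 to 74.1 FPKM in GFP refed livers. Their part in the result was not tested.

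Refeeding for 1 h gave the most calls of the 16 comparisons, and none of them was a member. Over both models and genotypes 30.3% of the 10682 genes were called between refed and fasted livers, and 0 of the 10 members. None of the members had an unadjusted p under 0.05 in limma, beside 4505 of the 10682 genes. Apoa1 differed by 0.01 ± 0.05 on the log2 scale between refed and fasted livers (95% interval -0.09 to 0.11), Apoe by -0.02 ± 0.04 (-0.10 to 0.06), Apob by 0.03 ± 0.06 (-0.09 to 0.15) and Mttp by 0.04 ± 0.06 (-0.07 to 0.16). Apom differed by 0.04 ± 0.06 (-0.09 to 0.17) and Apoa5 by 0.04 ± 0.06 (-0.08 to 0.16). The median difference over the 10 members was 0.03, and over all genes 0.04. These joint values average arms that differed in sign. The members' median was -0.13 in Cre livers (all genes 0.08) and 0.06 in GFP livers (0.08). It was 0.12 in KO livers (all genes -0.02) and -0.02 in WT livers (0.01). By arm, 0 of 10 were called in Cre livers (5.44% of genes), GFP livers (6.56%), KO livers (5.68%) and WT livers (0.318%). In that order limma gave 4, 3, 1 and 1 members an unadjusted p under 0.05. Over all genes 2513 and 2491 of 10452 had one in Cre and GFP livers, and 2643 and 1614 of 10375 in KO and WT livers. Refed and fasted libraries did not overlap for 4 members in Cre livers (Apoa2, Apoc3 and Apoe lower, Apob higher; 30.4% of genes in either direction), 4 in GFP livers (Apoa1 and Apoc3 lower, Apob and Mttp higher; 27.2%), 2 in KO livers (Apoa1 and Apoe higher; 30.3%) and 0 in WT livers (19.7%).

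In the fit over all arms the lowest adjusted p among the members was that of Apoc3, with a difference of -0.11 ± 0.06 on the log2 scale (adjusted p = 0.142). Its means were 2515 ± 45.5 FPKM in refed against 2949 ± 131 FPKM in fasted Cre livers, and 3084 ± 212 FPKM in refed against 3567 ± 150.1 FPKM in fasted GFP livers, without overlap in either arm. In KO livers it averaged 3813 ± 608 FPKM refed and 3458 ± 346 FPKM fasted, and in WT livers 3395 ± 150.2 FPKM refed and 3784 ± 627 FPKM fasted (SD, n = 3 each). The refeeding difference of Apoc3 was called lower without KO refed replicate 2 (adjusted p = 0.0492) or without WT fasted replicate 3 (0.0302). These libraries stood at the ends of the length measure described below. They also held the highest Apoc3 value of KO refed livers (4484 FPKM) and the lowest of WT fasted livers (3063 FPKM). The part of length in these calls was not tested. Apoa4 in GFP livers had 91.4, 71.3 and 48.3 FPKM refed, against 30.5, 60.8 and 34.5 FPKM fasted, a difference of 0.75 ± 0.27 (adjusted p = 0.126) that was called without GFP fasted replicate 2 (1.05, adjusted p = 0.0487). In WT livers its difference had the other sign, at -0.39 ± 0.17 (adjusted p = 0.289).

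**Figure D4:**
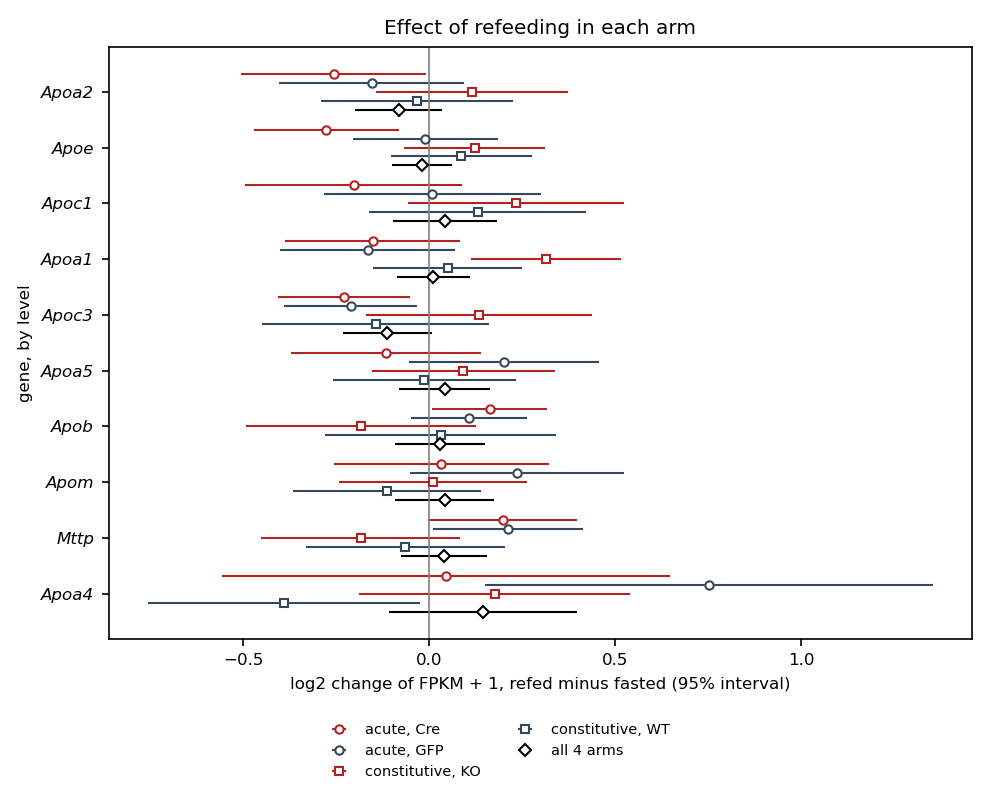
Log2 change of FPKM + 1, refed minus fasted, for each gene with its 95% interval, in Cre and GFP livers (circles), KO and WT livers (squares) and over all 4 arms (diamonds); open symbols mark an adjusted p of at least 0.05. Every symbol is open, and the joint estimates lie between -0.11 for Apoc3 and 0.15 for Apoa4.

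Whether refeeding acted differently without FoxO1 was tested as an interaction, and 0 of 10 members were called in the acute model (0.0287% of genes) or the constitutive model (0% of genes). At an unadjusted p under 0.05 in limma there were 0 members in the acute and 1 member, Apoa4, in the constitutive model. Over all genes there were 690 of 10452 and 457 of 10375. The intervals were wide: for Apom the Cre minus GFP difference in response was -0.20 (95% interval -0.61 to 0.20) and the KO minus WT difference 0.12 (-0.23 to 0.48). The FoxO1-loss effect itself was called as different between models for 0 of 10 members in fasted or refed livers, and for 0% of all genes. In refed livers 6 members had an unadjusted p under 0.05 in limma for that difference between models, with Apoc3 (-0.45), Apoa2 (-0.37), Apoa1 (-0.29), Apoa4 (-0.86) and Apoe (-0.23) more negative in the acute model and Apob (0.35) more positive. In fasted livers 0 members had such a p, and over all genes 1165 had one in refed and 839 in fasted livers.

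Within groups the members did not vary independently. Across the 24 libraries, after subtraction of each group's mean, Apob and Mttp varied together (r = 0.76), as did Apoa2 and Apoc3 (0.73), the adjacent Apoe and Apoc1 (0.69) and Apoa5 and Apoc3 (0.63), while Apob and Apoc3 ran opposite (-0.72). These are descriptions over libraries that share their scaling and depth. The mRNAs of Apoa2, Apoc3 and Apoc1 are 518 to 532 bases long, that of Mttp 3963 bases and that of Apob 13934 bases. A length value was computed for each library, the median log2 deviation of transcripts over 4000 bases minus that of transcripts under 1000 bases. It ran from -0.290 in KO refed replicate 2 to 0.231 in WT fasted replicate 3, was below 0 in the 3 KO refed libraries, and spanned -0.107 to 0.0738 in the acute model. The members' deviations from their group means were set against this length value after its own group means had been subtracted too. There r was 0.86 for Apob and 0.60 for Mttp. It was -0.80 for Apoc3, -0.57 for Apoa2, -0.56 for Apoa5 and 0.0014 for Apom. With the length trend removed from every library, an analysis added after the data had been seen, the joint FoxO1-loss difference of Apom was -0.48 (adjusted p = 0.00009), and Apoa5 (-0.24, 0.0168) and Apoc3 (-0.17, 0.0474) were also called lower. Under the same treatment the joint refeeding differences of Apoc3 (-0.19, adjusted p = 0.00327) and Apoa2 (-0.16, 0.00852) were called lower.

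**Figure D5:**
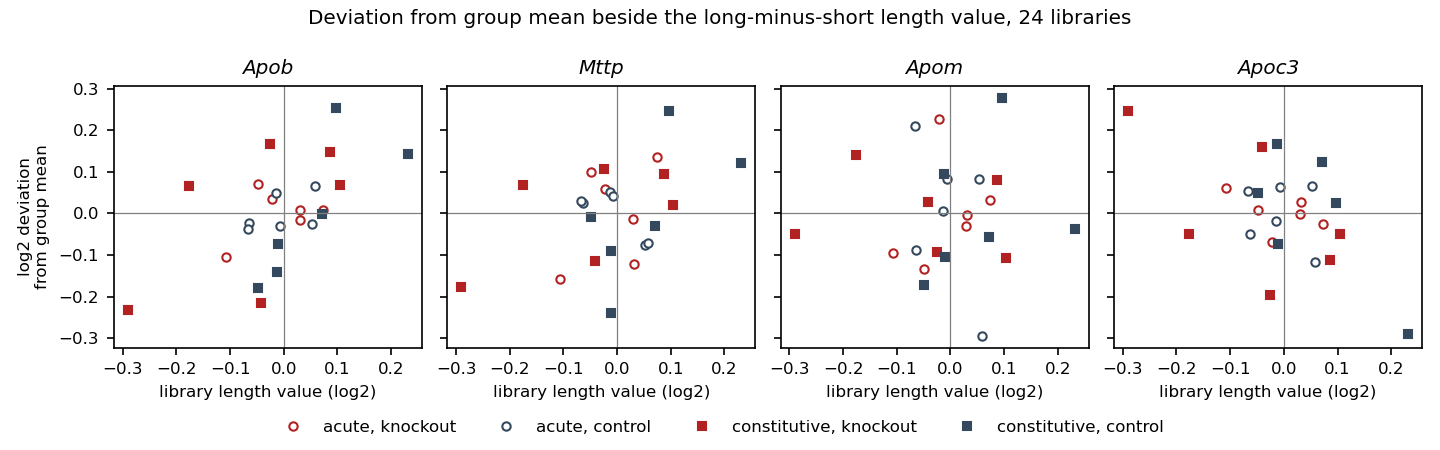
Deviation of log2(FPKM + 1) from the group mean against the library's length value (log2, long minus short transcripts) for Apob, Mttp, Apom and Apoc3 in 24 libraries; red points are knockout and dark points control livers, open circles acute and filled squares constitutive. The length value is plotted without subtraction of its group means. With these subtracted as well, r was 0.86 for Apob, 0.60 for Mttp, -0.80 for Apoc3 and 0.0014 for Apom.

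Other genes of lipoprotein metabolism were taken from fixed lists. Of 16 further apolipoproteins and apolipoprotein-associated genes, including Apoc2, Apoc4, Apoh and Saa1, 15 were tested. By limma 0 were called for FoxO1 loss or for refeeding over all libraries, beside 3.14% and 30.3% of all genes. At an unadjusted p under 0.05 there were 1 and 3, beside 1682 and 4505 of 10682 genes. Of 22 genes of lipoprotein assembly and secretion, 1 was called for FoxO1 loss, beside 3.14% of all genes, the lipid droplet coat Plin2, which rose by 0.36 ± 0.08 on the log2 scale (adjusted p = 0.013). For refeeding 5 rose and 1 fell, a share of 6 in 22 beside 30.3% of all genes: the chaperone Hspa5 (0.40), Kpna1 (0.23) and the vesicle coat GTPase Sar1a (0.21) were among those that rose, and Plin2 fell by 0.40.

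Of the lipoprotein remodelling and uptake genes, 5 of 21 tested were called for FoxO1 loss, 4 lower and 1 higher, beside 3.14% of all genes, and the median of the list was -0.12 against 0.00 over all genes. Scarb1, the hepatic receptor for high density lipoprotein, fell by 0.54 ± 0.05 (adjusted p = 5.38e-06). Its means were 33.1 ± 4.61 FPKM in Cre against 49.7 ± 2.55 FPKM in GFP fasted livers, and 35.8 ± 3.19 FPKM in KO against 53.2 ± 5.51 FPKM in WT fasted livers (SD, n = 3 each). Angptl4, an inhibitor of lipoprotein lipase, fell by 0.48 ± 0.12 (adjusted p = 0.0336), the hepatic lipase Lipc fell by 0.32 ± 0.04 (0.000337), and the heparan sulfate proteoglycan Sdc1 rose by 0.29 ± 0.06 (0.015). The remaining called gene, Gpld1, a phospholipase carried on high density lipoprotein, fell by 0.23 ± 0.04 (0.000951). For refeeding 10 of 21 were called, 3 higher and 7 lower, beside 30.3% of all genes. Among them were Gm6484 (1.16), the endothelial lipase Lipg (0.70) and the sterol exporter subunit Abcg8 (-0.38). Gm6484 spread widely within refed groups, over 58.8 to 385 FPKM in Cre, 43.6 to 178 in GFP, 26.8 to 117 in KO and 15.2 to 64.3 in WT livers. Of 26 tested transcription factors and cofactors known at apolipoprotein genes, Foxo1 apart, 2 were called for FoxO1 loss, beside 3.14% of all genes: Ppargc1a fell by 0.39 ± 0.08 (adjusted p = 0.00677) and Foxa3 rose by 0.38 ± 0.08 (0.0102). For refeeding 9 of the 26 were called, 5 higher and 4 lower, beside 30.3% of all genes, among them Nr1d1 (-1.03), Foxa3 (0.66), Ppargc1b (-0.44) and Srebf1 (0.39).

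Genes whose levels followed those of a member most closely were sought among 4021 genes across 24 libraries, after subtraction of each model's mean. Nearest to Apom were Psmd9 (r = 0.83), Scarb1 (0.80) and Csnk1d (0.79). Nearest to Apoc3 was Apoa2 (0.86), then B4galnt1 (0.76) and Stard10 (0.74), and nearest to Apoa2 were Apoc3 (0.86), Stard10 (0.84) and Fah (0.82). For Apoa1 they were Ccl9 (0.77), 5730403B10Rik (0.75) and Apoc3 (0.73), and for Apoa5 Cyp2c37 (0.69), Rnase4 (0.69) and Fetub (0.68). These values include the group differences, and the libraries share depth and length value.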

How the data were processed

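Liver RNA of 24 samples was measured by stranded mRNA sequencing, per the labels' protocols. The authors deposited 1 FPKM value with an interval for each gene locus of a sample. HISAT2, Cufflinks, Cuffdiff and build mm10 are named, without versions, in the submitters' processing notes. Whether strand was used in quantification is not stated. GENCODE vM21 annotates genes on the opposite strand of Apoa4, Apoa5 and Mttp, whose reads could not be told apart if strand was not used. The deposited interval extended 0.372% to 10.0% of a member's FPKM to either side. The fragment numbers it implies lay within 0.05 of a whole number for 62.9% to 66.0% of low loci, where chance gives 10%. They gave relative depths and no totals, so no counting intervals are printed.

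Groups came from the sample titles, and 0 pairs of libraries held identical values. After 14 loci marked as failed were left out, loci with FPKM of at least 1 in at least 3 fitted libraries were kept (10452 acute, 10375 constitutive, 10682 joint). Values were tested as log2(FPKM + 1), which understates changes of low genes, with limma 3.58.1 (trended eBayes) in R 4.3.3, with 1 coefficient per group. The 12 libraries of a model, or all 24, shared 1 estimate of the spread. P-values are two-sided and were adjusted by Benjamini and Hochberg's method across every gene kept, and calls were made at 0.05 in 16 comparisons. The pipeline was tested on simulated data. Values are printed in every library for the members called, then for those with the largest test statistic up to 5. Lists are described by counts, and of each list up to 4 called genes with the largest changes are named; Gpld1 was added after its value was seen. The value of 1 gene that this rule names is not reported here. The members and lists were chosen with earlier results of these data known. Alternatives varied the pseudocount (0.1), filter (none, or FPKM 5), scaling, weights, threshold (0.01), replicate block, a depth term, the 14 failed loci (kept), the 4 deeper libraries (left out), the length trend and each single library (left out). Upstream sequences are RefSeq's. Tables and figures were made with Python 3.11.15, pandas 2.3.3 and matplotlib 3.10.9.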

Additional observations from a re-analysis of the deposited data

How the results depend on the processing

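Of 4440 recomputed member differences, 4387 kept their call status, 22 lost a call and 31 gained one. Called as reported were only Apom in the constitutive average and the joint FoxO1-loss fit, Apoa1 in the joint fit and Apoc3 in the acute average. The 22 losses all fell on these calls, while most of the 4387 were differences that stayed uncalled. The 4387 therefore says little about how well those calls held. The sign changed for 0 called values and for 185 uncalled ones. Apom in the joint FoxO1-loss fit was called in 24 of 24 fits without 1 library and in 13 of 13 other alternatives (adjusted p 0.00009 to 0.00234 among the latter).

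The number of members called for FoxO1 loss over all libraries was 2 and became 1 at a threshold of 0.01, with no filter or without the 4 deeper acute libraries, 3 (with Apoa5) with TPM scaling, scaling to other loci, array weights, a filter at FPKM 5 or the replicate block, 4 with the length trend removed, and 1 to 3 without 1 library. In the acute model averaged over states it was 1 and became 2 with TPM scaling, scaling to other loci, array weights, a depth term, a filter at FPKM 5 or the length trend removed, 0 at 0.01, with no filter or without the deeper libraries, and 0 to 2 without 1 library. In the constitutive model averaged over states it was 1, 0 at 0.01 and 0 to 1 without 1 library. It was 0 in single states and became 1 in fasted constitutive livers with median-of-ratios scaling, 0 to 1 there and in refed acute livers without 1 library. For refeeding it was 0 and became 2 over all arms with the length trend removed (0 to 1 without 1 library), 1 in Cre livers with median-of-ratios scaling (Apoe), 1 in GFP livers with the length trend removed (0 to 1 without 1 library), and 1 in KO livers with a filter at FPKM 5 (Apoa1). The cause was not tested.

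Over all genes, calls for FoxO1 loss were 124 higher and 211 lower, and 82 and 247 with scaling to other loci; for refeeding they were 2128 and 1108, and 1587 and 1602 with median-of-ratios scaling. Without the deeper acute libraries FoxO1-loss calls over all genes numbered 183.

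Replicate numbers were not taken as pairs, since the labels tie no number to a shared source. Some pairs of libraries had deviations correlated over 0.1, more often the same-numbered ones in the constitutive model only. Whether same-numbered libraries shared a source was not tested. In the acute model 5 of 18 same-numbered and 15 of 36 differently numbered pairs did (median r -0.03 and -0.01), and in the constitutive model 9 of 18 and 6 of 36 (0.09 and -0.05). With the replicate block the acute average called 0 members (Apoc3, adjusted p = 0.0856), fasted constitutive livers 1 (Apom, 0.0414), and Apoa5 passed in the joint fit (0.0431).

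FPKM carries no totals here, so counting error could not be separated from the spread between 3 libraries a group.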

Other observations

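The chromosomal neighbours of the members were listed within 100 kb, 54 loci in all, of which 36 were tested. Over all libraries 4 of the 36 were called for FoxO1 loss, against 3.14% of all genes, and 11 for refeeding, against 30.3%. Beside Apoa5 on chromosome 9, Zfp259 fell by 0.47 ± 0.10 on the log2 scale (adjusted p = 0.00958) and Bud13 by 0.60 ± 0.13 (0.0169), while Sik3, on the other side of the cluster, differed by -0.13 ± 0.06 (0.306). Near Apoa2 on chromosome 1, Pcp4l1 fell by 0.63 ± 0.15 (0.0232) and Ppox rose by 0.22 ± 0.05 (0.0102). The 11 loci tested near Apom on chromosome 17 differed by -0.08 to 0.49.

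Cell markers were also compared between refed and fasted livers in the fit over all arms. Called were 3 of 7 tested Kupffer cell, 4 of 6 stellate cell and 4 of 6 sinusoidal endothelial markers, beside 30.3% of all genes. Every tested marker of these lists stood above 0. In KO livers alone 1 of 6 endothelial and 5 of 7 Kupffer cell markers stood above 0. In the fit over all arms the 6 hepatocyte markers had a median difference of 0.00. Their part in the refeeding results was not tested.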
